A study of Chlamydomonas reinhardtii with 3 samples.

Results

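The genes described here lie on the unplaced scaffolds of the Chlamydomonas reinhardtii genome, the assembled stretches that have not been assigned to a chromosome. They were chosen by their locus identifiers, which carry the chromosome or scaffold number after Cre, as every gene entry numbered 18 or higher that has a methylation level in both genotypes. This gave 242 of the 17326 genes with levels, on 33 scaffolds numbered 18 to 52, and the other 17084 genes lie on the 17 chromosomes. All 242 were found as protein-coding genes in the RefSeq gene table of assembly Chlamydomonas_reinhardtii_v5.5, which gave none of them a symbol, so they are named by locus identifier and no function is stated.

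Cytosine methylation was measured by whole-genome bisulfite sequencing, in which unmethylated cytosine is converted and read as thymine. There were 2 libraries of cmd1 knockout (cmd1 KO) cells and 1 wild type (WT) library, all of strain CC125 and all kept at 25 °C under dim light (20 μmol photons m-2 s-1) before the cells were moved to a high salt medium and a light of 300 μE. The labels do not say how the knockout was made, whether it is 1 clone, or for how long the light lasted. The deposited table gives 1 level per gene and genotype, the mean over the sites listed for that gene, and the 2 cmd1 KO libraries share a column. Values thus carry no replicate error, differences could not be checked against replicates, and every comparison describes these libraries.

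CMD1 is an algal relative of the animal TET dioxygenases. It uses vitamin C to add a glyceryl group to the methyl carbon of 5-methylcytosine, and the series asks whether the methylation level changes without it. In this alga most nuclear genes carry little cytosine methylation, and unplaced scaffolds of an assembly are often short and rich in repeats, which makes them hard to order. No sequence is printed, as no genome or sequence table was used here.

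The scaffolds held a larger share of methylated genes in either genotype than the chromosomes did. The cmd1 KO level had a median of 7.39% (quartiles 5.55% and 17.7%, range 2.89% to 66.5%) on scaffolds, against 5.88% (quartiles 5.03% and 7.01%) on chromosomes. The WT level had a median of 1.67% (quartiles 1.06% and 9.49%, range 0.24% to 69.4%) on scaffolds, against 1.05% (quartiles 0.82% and 1.37%) on chromosomes. The scaffold medians lay above the chromosome upper quartiles in both genotypes, and the upper quartiles lay further apart than the medians. A level of 10% or more was found in cmd1 KO in 93 scaffold genes, 38.4%, against 8.22% of chromosome genes. In WT it was found in 59 scaffold genes, 24.4%, against 3.18% of chromosome genes. Among single chromosomes the WT share ranged from 1.90% on chromosome 7 to 9.30% on chromosome 15, so it was lower on every chromosome than over all scaffolds. Leaving out 1 scaffold at a time kept the WT share between 21.8% without scaffold 25 and 28.5% without scaffold 18. Genes of 1 scaffold share a stretch of the genome and are not independent, so no interval or test is given for these shares.

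The numbers of listed sites differed between the genotypes and moved with the level. The cmd1 KO levels of the scaffold genes rested on 13377 listed sites (5 to 241 per gene, median 32.5), and the WT levels on 18838 (5 to 216 per gene, median 75.5). The cmd1 KO column listed more sites than the WT column in 54 of the 59 genes at 10% or more in WT, but in only 9 of the 183 genes under 10%. The read depth behind the levels is unknown, and intervals of single levels are therefore not given. In 131 of the 242 scaffold genes, the WT mean lay below the least mean that different levels in steps of 0.001 could have, so these WT lists held repeated levels. The same was true of 0 cmd1 KO means. Over the whole series it was true of 15822 WT means and 0 cmd1 KO means among 17326. This check reaches less far in cmd1 KO, where most genes had fewer listed sites and a higher level. No WT mean of 10% or more lay below that least mean either. The cmd1 KO level may be a mean in which each distinct level counts once, which these tables do not settle. Zeros would then count once as well, and the mean of a gene with little methylation would be higher than over all its sites. Every cmd1 KO level and difference given here, above all in genes with little methylation, carries this limit.

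Methylated and unmethylated genes were unevenly divided among the scaffolds. All genes stood at 10% or more in WT on 5 of the scaffolds with at least 3 genes, numbers 25, 27, 28, 30 and 34, which hold 31 genes. None did on another 9 such scaffolds with 109 genes, among them numbers 18, 19, 24, 26, 33 and 35. The remaining 7, with 83 genes, held genes of either kind. Scaffolds accounted for 71.1% of the variance of the cmd1 KO level and 72.2% of that of the WT level over the 242 genes. They accounted for 19.4% of the variance of the difference, where grouping 242 genes into 33 sets gives 13.3% by itself. In these libraries the scaffold a gene lies on thus went with its level far more than with its difference between genotypes.

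**Figure D1:**
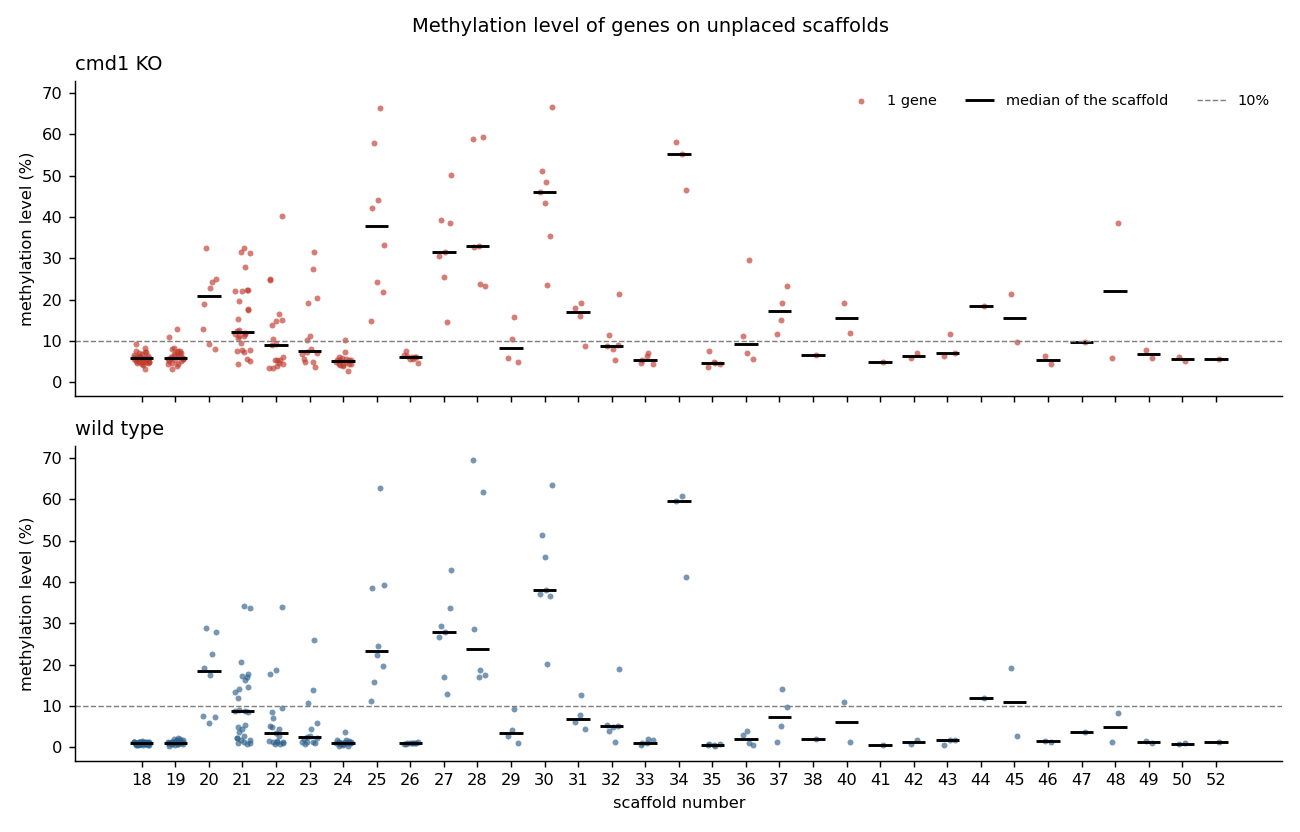
Methylation level in percent (vertical axis) of every gene on each unplaced scaffold (horizontal axis) in cmd1 KO (upper panel) and WT (lower panel). Each point is 1 gene, black bars are scaffold medians and the dashed line marks 10%. Scaffolds 25, 27, 28, 30 and 34 lie wholly above 10% in both panels, and scaffold 18, with 35 genes, wholly below it.

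Scaffold 34 was the most heavily methylated. Its 3 genes had cmd1 KO levels of 46.6% to 58.1% and WT levels of 41.1% to 60.7%. Cre34.g759097 stood at 55.2% in cmd1 KO and 60.7% in WT. Among the 33 scaffolds it alone had a negative median difference, of -1.5 percentage points, with 2 genes lower and 1 higher in cmd1 KO.

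Scaffold 30 carried 7 genes with cmd1 KO levels of 23.5% to 66.5% (median 46.0%) and WT levels of 20.2% to 63.3% (median 38.2%). Its highest gene, Cre30.g758097, stood at 66.5% over 237 sites in cmd1 KO and at 63.3% over 150 sites in WT. In cmd1 KO, 4 of the 7 were higher and 3 lower, so there was no common direction on this scaffold.

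Scaffold 28 carried 6 genes with cmd1 KO levels of 23.2% to 59.3% and WT levels of 17.2% to 69.4%. The 2 most methylated lie next to each other: Cre28.g757697 stood at 58.9% in cmd1 KO and 69.4% in WT, the highest WT level on any scaffold. Its neighbour Cre28.g757747 stood at 59.3% in cmd1 KO and 61.7% in WT. The other 4 genes were all higher in cmd1 KO.

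Scaffold 27 carried 7 genes with cmd1 KO levels of 14.5% to 50.1% and WT levels of 13.0% to 42.8%, and all 7 were higher in cmd1 KO. Scaffold 25 carried 8 genes with cmd1 KO levels of 14.8% to 66.3% and WT levels of 11.2% to 62.7%. Its first measured gene, Cre25.g756147, stood at 66.3% in cmd1 KO and 62.7% in WT. In cmd1 KO, 7 of the 8 were higher and 1 lower.

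At the other end stood scaffolds with little methylation in WT. Scaffold 18, with the most genes, had 35 cmd1 KO levels of 3.17% to 9.17% (median 5.89%) and 35 WT levels of 0.59% to 1.5% (median 1.06%). Its least methylated gene in WT, Cre18.g749397, stood at 5.89% in cmd1 KO and 0.59% in WT, and its most methylated, Cre18.g748947, at 4.82% in cmd1 KO and 1.5% in WT. The gene that was higher in WT was thus the lower of the pair in cmd1 KO. All 35 genes were higher in cmd1 KO, and none by 10 points.

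Scaffolds 19 and 24 also held only genes under 10% in WT. The 26 genes of scaffold 19 had cmd1 KO levels of 3.34% to 12.9% and WT levels of 0.24% to 2.35%. Cre19.g750997, with the lowest WT level on any scaffold, stood at 5.11% over 10 sites in cmd1 KO and 0.24% over 50 sites in WT. Cre19.g750647, with the highest WT level of its scaffold, stood at 7.61% in cmd1 KO and 2.35% in WT. One gene, Cre19.g750247, was higher by more than 10 points, at 12.9% over 15 sites in cmd1 KO and 1.78% over 55 sites in WT. Its lowest cmd1 KO level over as many sites as in WT was 3.51%. The 18 genes of scaffold 24 had cmd1 KO levels of 2.89% to 10.2% and WT levels of 0.33% to 3.67%. Cre24.g755847 stood at 10.2% in cmd1 KO and 3.67% in WT, the highest of its scaffold in either genotype, and Cre24.g755297 at 4.42% in cmd1 KO and 0.33% in WT. Scaffold 26, with 9 genes, had cmd1 KO levels of 4.78% to 7.51% and WT levels of 0.73% to 1.25%.

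On the mixed scaffolds with more than 1 methylated gene, these genes often stood together. Scaffolds 31, 32, 37, 40 and 45, also mixed, held only 1 each. On scaffold 21 the last 8 of 28 measured genes had cmd1 KO levels of 15.4% to 32.5% and WT levels of 12.1% to 34.2%, and 17 of the 20 before them were under 10% in WT. The stretch holds Cre21.g753197, at 32.5% in cmd1 KO and 34.2% in WT. The least methylated gene of the scaffold in WT, Cre21.g752897, lies immediately before the stretch, at 5.55% in cmd1 KO and 0.84% in WT. On scaffold 20 the first 5 of 8 measured genes had cmd1 KO levels of 19.0% to 32.6% and WT levels of 17.6% to 28.8%. The last 3 had 8.12% to 12.9% in cmd1 KO and 5.90% to 7.68% in WT.

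On scaffold 22 the last 3 of 19 measured genes were the only ones at 10% or more in WT, with cmd1 KO levels of 14.7% to 40.3% and WT levels of 17.8% to 33.9%. Cre22.g754147, the highest of them, stood at 40.3% in cmd1 KO and 33.9% in WT. Cre22.g753747, the lowest of the scaffold in WT, stood at 5.47% in cmd1 KO and 0.75% in WT. On scaffold 23 a pair and a further gene were at 10% or more in WT among 14. Cre23.g754747 stood at 31.6% in cmd1 KO and 26.0% in WT, and Cre23.g754497 at 4.83% in cmd1 KO and 0.80% in WT.

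**Figure D2:**
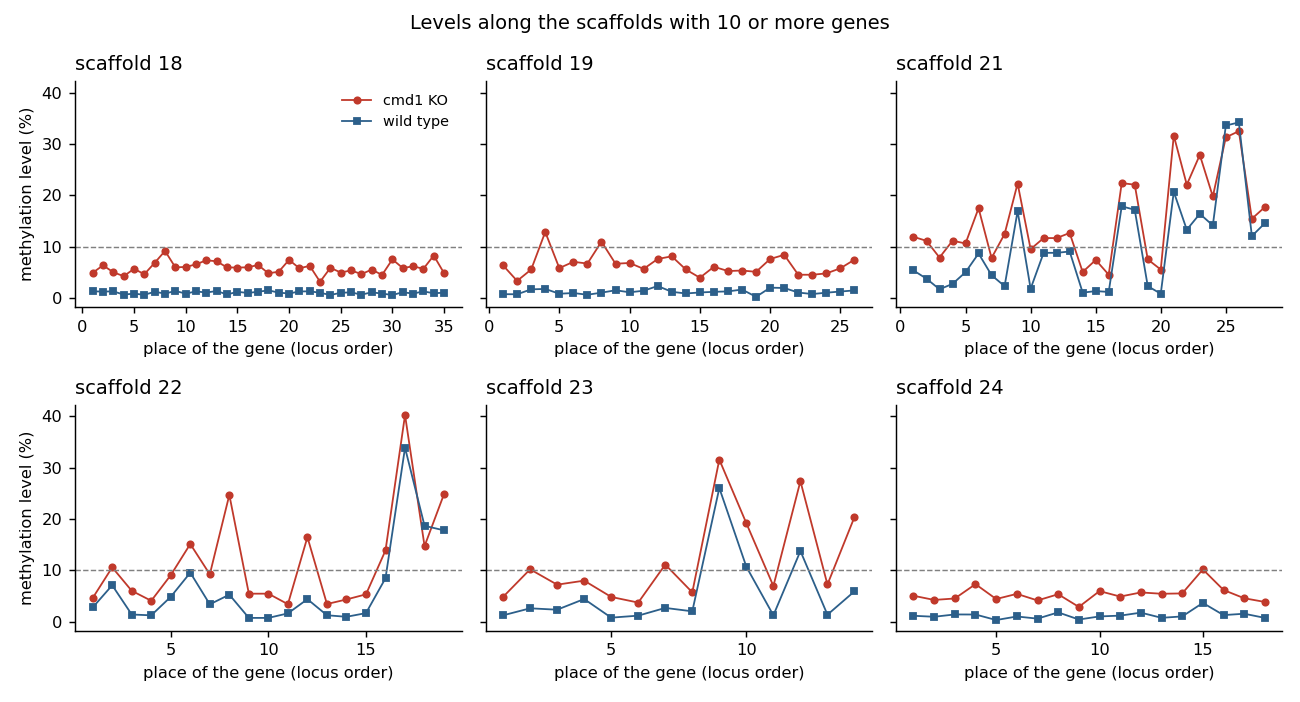
Methylation level in percent (vertical axis) of the genes in locus order (horizontal axis, place among the measured genes) on the 6 scaffolds with 10 or more genes, in cmd1 KO (red circles) and WT (blue squares). The dashed line marks 10%. Scaffold 21 ends in a stretch of 8 genes above 10% in both genotypes, whereas scaffolds 18, 19 and 24 stay at or below 3.67% in WT.

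Over all scaffolds, 47 of the 59 genes at 10% or more in WT lay in 8 unbroken stretches of 3 or more such genes, the longest of 8 genes. Of the 47, 31 lie on the 5 scaffolds where all genes stood at 10% or more, so those stretches restate that division. In all, the 59 genes formed 18 stretches, and 8 of these were single genes. Genes next to each other in the RefSeq table, with levels for both, formed 200 pairs. A neighbour of a gene at 10% or more in WT was itself at 10% or more in 82 of 99 cases, 82.8%. A neighbour of a gene under 10% was so in 17 of 301 cases, 5.65%. On chromosomes these shares were 61.4% and 1.26%. On the 5 scaffolds where all genes stood at 10% or more, every neighbour was at 10% or more by that division. Part of the 82 cases thus restates it, and the share without these scaffolds was not computed. The distance from the chromosome share carries this limit. With genes 3 places apart the shares were 72.5% and 7.95% on scaffolds, against 45.7% and 1.76% on chromosomes. The likeness thus reached beyond adjacent genes on both. Scaffolds where all genes stood at 10% or more enter this scaffold share too. Over the 200 pairs, Pearson's r was 0.78 and Spearman's rho 0.62 for the cmd1 KO levels of neighbours, and 0.78 and 0.69 for their WT levels. For the differences between genotypes they were -0.06 and 0.17. These coefficients are descriptions, since the pairs share libraries and overlap in genes.

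Some neighbours share their data outright. Cre21.g752447 and Cre21.g752497 have the same site numbers, levels and p-value, at 11.7% over 62 sites in cmd1 KO and 8.81% over 49 sites in WT. The same holds for Cre22.g753747 and Cre22.g753797, at 5.47% over 19 sites in cmd1 KO and 0.75% over 84 sites in WT. These pairs are 2 of the 200 neighbouring pairs on scaffolds, 1.0%, against 16 pairs on chromosomes, 0.0957%. They were singled out after their values had been seen. The sources used here do not give the region assigned to each gene, and how many other neighbours share a part of their sites was not tested. Without the 2 pairs, the shares of methylated neighbours were 82.8% and 5.72%.

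The cmd1 KO level was higher than the WT level in 229 scaffold genes, 94.6%, and lower in 13, against 99.1% higher on chromosomes. The median difference was 4.72 points on scaffolds and 4.73 points on chromosomes. The central 90% of differences ran from -0.17 to 11.1 points on scaffolds and from 2.88 to 8.78 points on chromosomes. The scaffold genes were thus spread more widely about the same median. These values are for the levels as deposited. When the summed cmd1 KO levels were divided by the WT site number where that was larger, 88.4% of scaffold genes were higher and the median difference was 1.19 points. At 1.52 and 2.02 times the WT site number, ratios explained with the largest differences, 62.8% and 30.2% were higher and the median differences were 0.23 and -0.30 points. The direction and size thus depended on the number of cmd1 KO sites assumed, and these divisions can only lower the cmd1 KO values. With each column centred on its own median over all genes, 47.9% of scaffold genes were higher and the median difference was -0.11 points, but centring forces a share of this kind towards the middle. As deposited, all 183 scaffold genes under 10% in WT were higher in cmd1 KO, and all 13 lower genes stood at 10% or more in WT. Chromosome genes were much alike in this: all 15563 under 2% in WT and 969 of 977 between 2% and 10% were higher. Of the 148 lower chromosome genes, only 8 stood under 10% in WT. Divided by the WT site number, 15 of the 183 scaffold genes were lower. Across the 242 genes, which are not independent, Pearson's r between the cmd1 KO and WT levels was 0.94 and Spearman's rho 0.84.

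**Figure D3:**
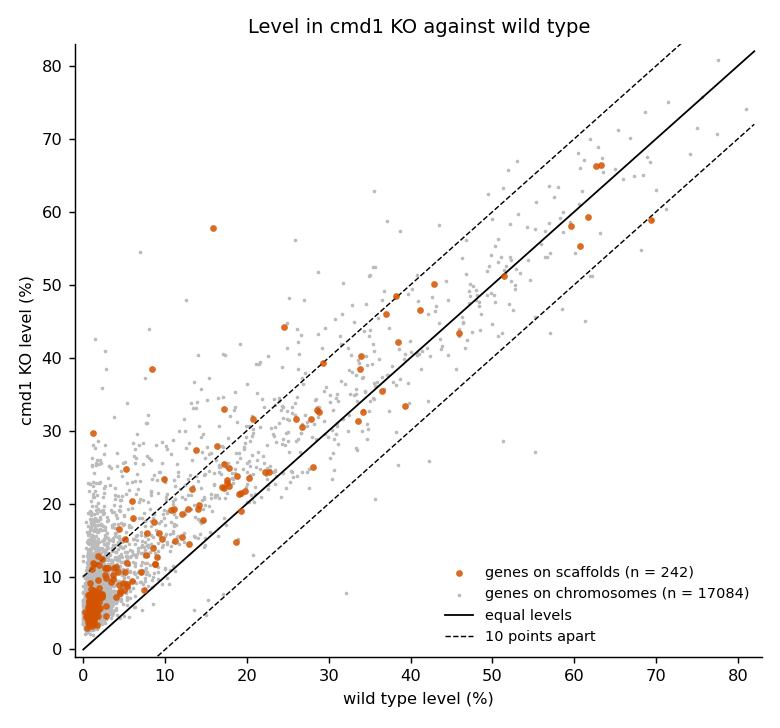
Level in cmd1 KO (vertical axis, percent) against WT (horizontal axis, percent) of the 242 genes on scaffolds (orange) and the 17084 genes on chromosomes (grey). The solid line marks equal levels and the dashed lines 10 points above and below. Of the scaffold genes, 19 lie on or above the upper dashed line and 1 below the lower one.

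The difference depended on the WT level, which also enters it. The 134 scaffold genes under 2% in WT had a median difference of 4.64 points, against 4.71 points on chromosomes. The 49 genes between 2% and 10% had 5.58 points, against 5.52 points. The 28 genes between 10% and 20% had 5.31 points, against 7.68 points, and 26 of the 28 were higher in cmd1 KO. The 21 genes between 20% and 40% had 3.77 points, against 3.88 points, with 16 higher and 5 lower. The 10 genes at 40% or more had -0.86 points, against -0.34 points, with 4 higher and 6 lower. Along these classes the median ratio of cmd1 KO to WT site numbers on scaffolds was 0.34, 0.61, 1.28, 1.48 and 1.62. On chromosomes it was lower in each class, at 0.30, 0.50, 1.03, 1.35 and 1.52. The part of this ratio in the differences was not tested.

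**Figure D4:**
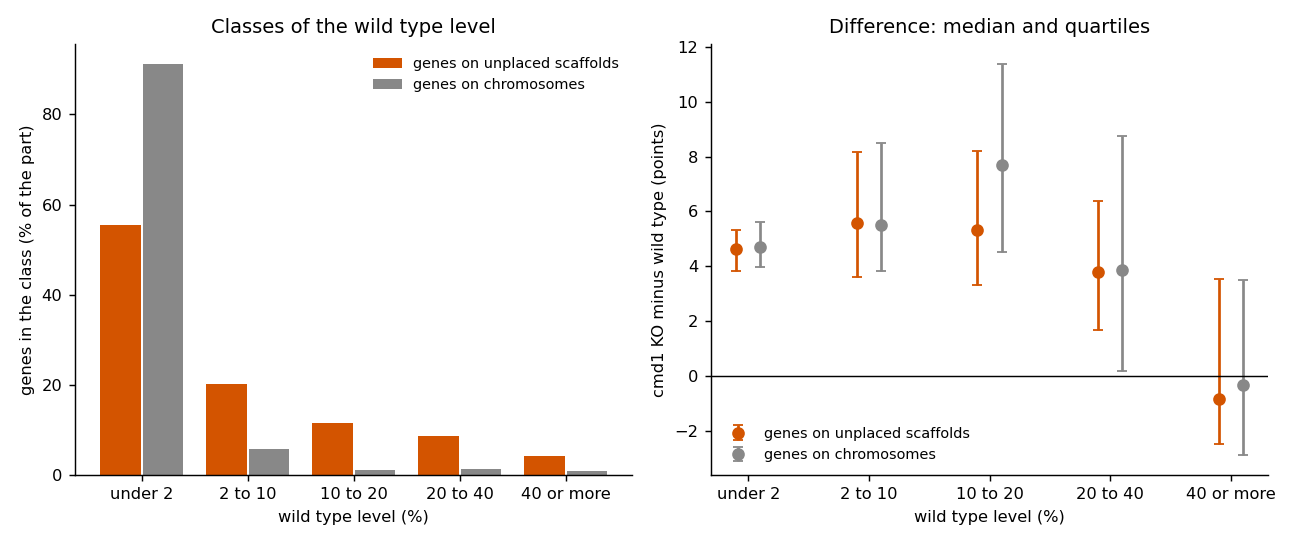
Left, share of the genes of each kind (vertical axis, percent) in 5 classes of the WT level (horizontal axis, percent) for scaffolds (orange) and chromosomes (grey). Right, cmd1 KO minus WT in percentage points (vertical axis) by the same classes, with points for medians and bars for quartiles. Under 2% in WT lay 55.4% of scaffold genes and 91.1% of chromosome genes, and the median differences of both kinds lay closest to each other in the classes under 10% and from 20% to 40%.

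Towards cmd1 KO, 19 scaffold genes differed by 10 points or more, 7.85%, where 3.5% of all genes passed this size. Towards WT 1 gene did, 0.413%, where 0.0923% of all genes did. The count of 19 has to be read with the WT levels. If each class of the WT level had held the chromosome share of such genes, 25.9 scaffold genes, 10.7%, would have passed. In 4 of the 5 classes the scaffold share was the lower one, most clearly between 10% and 20%. Between 10% and 20% it was 4 of 28 genes, 14.3%, against 33.5% on chromosomes. Between 2% and 10% it was 7 of 49 genes, 14.3%, against 18.8%. It was 4 of 21 genes, 19.0%, against 20.5% between 20% and 40%, and 0 of 10 genes against 4.29% from 40%. So few genes from 20% upwards do not settle which share was lower there. Under 2% it was the higher one, 2.99% against 1.88%. The classes match WT levels only roughly, with medians of 16.7% on scaffolds and 14.4% on chromosomes between 10% and 20%. Towards cmd1 KO, 104 scaffold genes differed by 5 points or more, 43.0%, close to the 41.7% of all genes. The 19 genes lay on 13 scaffolds, with cmd1 KO levels of 11.7% to 57.7% and WT levels of 1.13% to 38.2%. Of them, 4 stood under 2% in WT, 7 between 2% and 10%, and 8 at 10% or more.

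The differences of Cre25.g756197, Cre48.g761197 and Cre36.g759547, the largest on scaffolds, exceeded those of the measured genes beside them. Cre25.g756197 stood at 57.7% over 46 sites in cmd1 KO and 15.9% over 30 sites in WT, a difference of 41.9 points that exceeded 99.99% of all genes. Its neighbour Cre25.g756147 differed by only 3.64 points. The neighbour on the other side, Cre25.g756247, stood at 33.3% in cmd1 KO and 39.3% in WT, a difference of -5.99 points. Beyond it, Cre25.g756297 was higher by 19.6 points. Cre48.g761197 stood at 38.5% over 84 sites in cmd1 KO and 8.42% over 81 sites in WT, 30.1 points higher. The other measured gene of that scaffold, Cre48.g761247, stood at 5.85% in cmd1 KO and 1.44% in WT.

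Cre36.g759547 stood at 29.7% over 110 sites in cmd1 KO and 1.13% over 46 sites in WT, 28.6 points higher. It is the one of these genes that resembled an unmethylated gene in WT. The other 3 genes of scaffold 36 had cmd1 KO levels of 5.61% to 11.2% and WT levels of 0.72% to 4.03%. The gene on the same scaffold nearest to it in locus order, Cre36.g759597, differed by 8.18 points.

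Of the next genes in size, Cre25.g756297 stood at 44.2% in cmd1 KO and 24.6% in WT, and Cre22.g753697 at 24.7% over 23 sites in cmd1 KO and 5.28% over 55 sites in WT. Cre28.g757647 stood at 32.9% in cmd1 KO and 17.2% in WT. Cre23.g754997 stood at 20.4% in cmd1 KO and 5.93% in WT, and Cre23.g754897, on the same scaffold, at 27.4% in cmd1 KO and 13.8% in WT. Cre37.g759897 stood at 23.4% in cmd1 KO and 9.82% in WT, and Cre22.g753897 at 16.5% in cmd1 KO and 4.40% in WT. Scaffolds 22, 23 and 25 thus each gave 2 of the 10 largest differences. The other 9 genes past 10 points differed by 10.0 to 11.9 points.

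How many of the 19 genes stayed 10 points above WT depended on the number of cmd1 KO sites assumed. When the summed cmd1 KO level of a gene was divided by the WT site number where that was larger, 11 stayed. With 1.52 times the WT site number, the median ratio of cmd1 KO to WT sites in all genes at 40% or more in WT, 8 stayed. With 2.02 times, the 95th percentile of that ratio, 3 stayed, namely Cre25.g756197, Cre48.g761197 and Cre36.g759547, whose lowest cmd1 KO levels were then 43.9%, 19.8% and 29.7%. For Cre36.g759547 the listed cmd1 KO sites already exceeded that number. Sites that the cmd1 KO column does not list enter these divisions as 0, so the levels they give are lower bounds at the assumed numbers.

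The single gene lower by at least 10 points was Cre28.g757697, the most methylated of all scaffold genes in WT. It stood at 58.9% over 207 sites in cmd1 KO and 69.4% over 150 sites in WT, a difference of -10.5 points. Its p in the authors' deposited table was 0.308 (adjusted p = 0.311, Benjamini-Hochberg over 17326 genes), so it did not pass 0.05. A lower level by 10 points is possible only in the 59 genes at 10% or more in WT.

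Each p in the authors' deposited table was adjusted over all genes by the Benjamini-Hochberg method. The adjusted p was under 0.05 in 202 scaffold genes that were higher in cmd1 KO, 83.5%, against 97.6% of all genes. In the opposite direction 1 of the 242 scaffold genes passed, Cre25.g756247 with an adjusted p of 0.00393, against 42 of all 17326 genes, 0.242%. What test gave this p is not stated, and it can only set the site lists of these libraries against each other. Of the 39 scaffold genes that did not pass, 34 stood at 10% or more in WT, 87.2%, close to the 81.8% on chromosomes. Under 10% in WT, 178 of 183 scaffold genes passed, 97.3%, against 99.6% on chromosomes. At 10% or more, 25 of 59 passed, 42.4%, against 48.7% on chromosomes. At either WT level the scaffold share that passed was thus the lower one. Under 10%, 5 of 183 scaffold genes did not pass, against 62 of 16540 chromosome genes. In the set of 19 genes past 10 points, 18 passed. The exception, Cre21.g753047, stood at 27.9% over 19 sites in cmd1 KO and 16.4% over only 10 sites in WT (adjusted p = 0.218 in the authors' deposited table).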

How the data were processed

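The members and the sizes counted were chosen with earlier results of these data known. Reads were handled with Trimmomatic 0.36, FastQC 0.11.5 and BSMAP, per the submitters' processing notes. The sources used here do not give the genome build, annotation, coverage minimum, cytosine contexts or region per gene. Per the file headers, the deposited table gives a methylation level as a fraction (printed as percent), a number of sites, a difference, a relative change, a fold ratio and an unadjusted p-value. The deposited relative change and fold were not used. The deposited difference was checked to be cmd1 KO minus WT. In 100% of members the level times the site number was a whole number of steps of 0.001, within 0.001 of a step.

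Of 253 entries on scaffolds, 11 without a level were left out. Medians, counts and Benjamini-Hochberg adjusted p-values were computed with Python 3.11.15, pandas 2.3.3 and scipy 1.17.1. The counts, the adjustment and the pairing of neighbours were checked on simulated data. Genes were counted as differing from 10 points, and as methylated from 10% in WT. Genes named were the 10 largest differences towards cmd1 KO, those lower by 10 points, the 5 highest and the lowest WT levels, and the highest and lowest WT level of each scaffold with 10 or more genes. Others given with values are neighbours of these, shared entries or exceptions, chosen after their values were seen. Alternatives were the size counted, site minimums, centring, other averages, other cmd1 KO denominators and left-out scaffolds.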

Additional observations from a re-analysis of the deposited data

How the results depend on the processing

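No paired analysis was possible because the table gives 1 value per gene and genotype, and leaving out a replicate was not possible for the same reason. Past 5 points, cmd1 KO was higher in 104 scaffold genes and lower in 3, and past 20 points 3 and 0. The share methylated in WT was 33.5% from a level of 5%, 12.8% from 20%, and 31.5% among the 184 genes with at least 20 sites in both columns. The median difference was 4.72 points over all scaffold genes and 4.25 points over those at 10% or more in WT. It became 5.29 and 4.70 points as means, and 4.63 and 4.07 points with at least 20 sites. Without scaffold 18 it was 4.71 points over all. Means weighted by each column's own sites lay 13.6 and 5.38 points apart. They weight the genes differently in each genotype, since the median site ratio rose from 0.34 under 2% in WT to 1.62 at 40% or more. These weighted values are therefore not averages of the gene differences. After centring, the medians were -0.11 and -0.58 points, 6 genes were higher and 3 lower by 10 points, and 47.9% were higher at all. With the cmd1 KO sum divided by the WT site number (where larger), 11 genes remained higher by 10 points, the medians were 1.19 and 3.88 points and 88.4% were higher. At 1.52 times that number 8 genes were 10 points higher and 3 lower, the medians were 0.23 and 1.32 points and 62.8% were higher. At 2.02 times it, 3 genes were higher and 10 lower, the medians were -0.30 and -3.40 points and 30.2% were higher. Unlisted cmd1 KO sites count as 0 there, which lowers these values by construction. Counting entries with shared values once, an alternative chosen after seeing the data like the scaffolds left out in turn, changed no count of genes past 10 points.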

Other observations

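Entries without a level made up 4.35% of the entries on scaffolds, 11 of 253, against 1.10% on chromosomes. They lie on 6 scaffolds and all have at most 4 sites in at least 1 column. Scaffold 51 has entries but no gene with a level.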
